A study of Mus musculus with 16 samples.

Results

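RNA levels in germinal centre B cells from mice heterozygous for the RH allele of Crebbp were compared with those in wild type cells of the same cohort. The libraries were chosen by their titles, which placed 4 in the heterozygous group (RH HET) and 3 in the wild type group (RH WT), so 7 of the 16 libraries of the series enter the comparison. RH HET cells carried 1 RH allele, an arginine-to-histidine change in the Crebbp protein, beside 1 wild type allele, and RH WT cells carried none. Homozygous RH libraries (RH HOMO, 3 libraries) and a Crebbp knockout (KO, 3 libraries) with its own wild type (KO WT, 3 libraries) are used only where they show how the heterozygous cells differ. All mice had been injected with sheep red blood cells, and B220+, PNA+, CD95+ cells of the spleen were sorted. The labels give both 10 and 12 days between immunisation and collection. The series title describes the alleles as conditional and germinal centre specific, but the labels name no Cre driver, no strain and no age. Nor do they say whether any mouse gave more than 1 library, and the p-values below therefore reflect library-to-library spread, which may be technical.

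Germinal centres are sites in lymphoid tissue where activated B cells divide, mutate their antibody genes in the dark zone and are selected by follicular helper T cells in the light zone. Crebbp is a lysine acetyltransferase that is recruited to enhancers by CREB and other transcription factors and keeps the histones there acetylated. In germinal centre B cells it opposes the repressor BCL6 at genes for antigen presentation, signalling and exit from the germinal centre, and missense changes in its acetyltransferase domain are frequent in follicular lymphoma.

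Total counts per library ran from 41362856 to 69358602 in RH HET and from 41407419 to 56171240 in RH WT. Defining markers of germinal centre B cells were present in every library, with all 14 listed genes tested and summed levels of 9107 to 10018 CPM (counts scaled to library size) in RH HET and 9395 to 10091 CPM in RH WT. The library RH WT 1 stood apart. Its batch tag names the KO cohort although its title names the RH cohort, its Pearson correlation with the other 6 libraries was 0.966 to 0.973, against 0.977 to 0.985 among those 6, and 10.52% of its counts fell on its top 10 genes, against 9.08% in RH WT 2, 6.92% in RH WT 3 and 6.50% to 8.53% in RH HET. Mitochondrially encoded genes took 3.93%, 5.84%, 4.32% and 4.17% of counts in RH HET 1 to 4, and 7.34%, 7.15% and 4.72% in RH WT 1 to 3. Xist counts put 1 RH HET library (4) and 1 RH WT library (3) as female. RH WT 1 is the only library of the comparison with the other batch tag. The values within the RH batch tag are therefore those without RH WT 1. They are given for the called genes and for list medians that move by over 1.5 times. For the defining germinal centre markers the median log2 difference, RH HET minus RH WT, was -0.02, and -0.0014 without RH WT 1.

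Crebbp itself (chromosome 16, 4081328 to 4213997, minus strand) was at 138, 124, 137 and 126 CPM in libraries RH HET 1 to 4, and at 93.2, 91.3 and 122 CPM in RH WT 1 to 3. The highest wild type library, RH WT 3, was just below the lowest heterozygous one. RH HOMO libraries had 115, 68.6 and 126 CPM. The log2 difference between RH HET and RH WT was 0.36 ± 0.16 (SE; interval 0.02 to 0.70; adjusted p = 0.668 by edgeR), 0.30 without RH WT 1 and 0.06 with a term for the mitochondrial share. A missense allele need not alter the level of its mRNA, so this level does not check the genotype labels. Ep300, the closest paralog, was at 343, 279, 329 and 319 CPM in the RH HET libraries and at 235, 206 and 311 CPM in RH WT (0.34 ± 0.22, adjusted p = 0.765), with RH HET 2 below RH WT 3. With that term Ep300 was at -0.11 and Kat2b at 0.15. Of 11 lysine acetyltransferase genes, 6 had positive differences, 3 of them with an unadjusted p under 0.05 (against 3.48% of all genes), and 0 were called. Those 3 were Crebbp, Kat2b (0.37 ± 0.12) and Kat6b (0.42 ± 0.17). The list median was 0.11, and 0.07 without RH WT 1.

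Heterozygosity for RH was accompanied by few gene-level changes that passed the test. Of 16606 genes tested with edgeR's quasi-likelihood test, 3 were called at a Benjamini-Hochberg adjusted p under 0.05, or 0.0181% of genes, with 2 higher (0.012%) and 1 lower (0.00602%) in RH HET. At an unadjusted p under 0.05 there were 1192 genes (7.18%), 578 of them higher (3.48%) and 614 lower (3.7%), and at an adjusted p under 0.1 there were 4 (0.0241%). With DESeq2 the counts were 17 higher and 34 lower genes, and with limma-voom, run with quality weights for the libraries, they were 127 and 117. The median gene had an absolute log2 difference of 0.15 and a standard error of 0.17. For 69.6% of genes the 95% interval of the difference lay within a 2-fold change in either direction, and for 52.95% it lay within a 1.5-fold change.

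**Figure D1:**
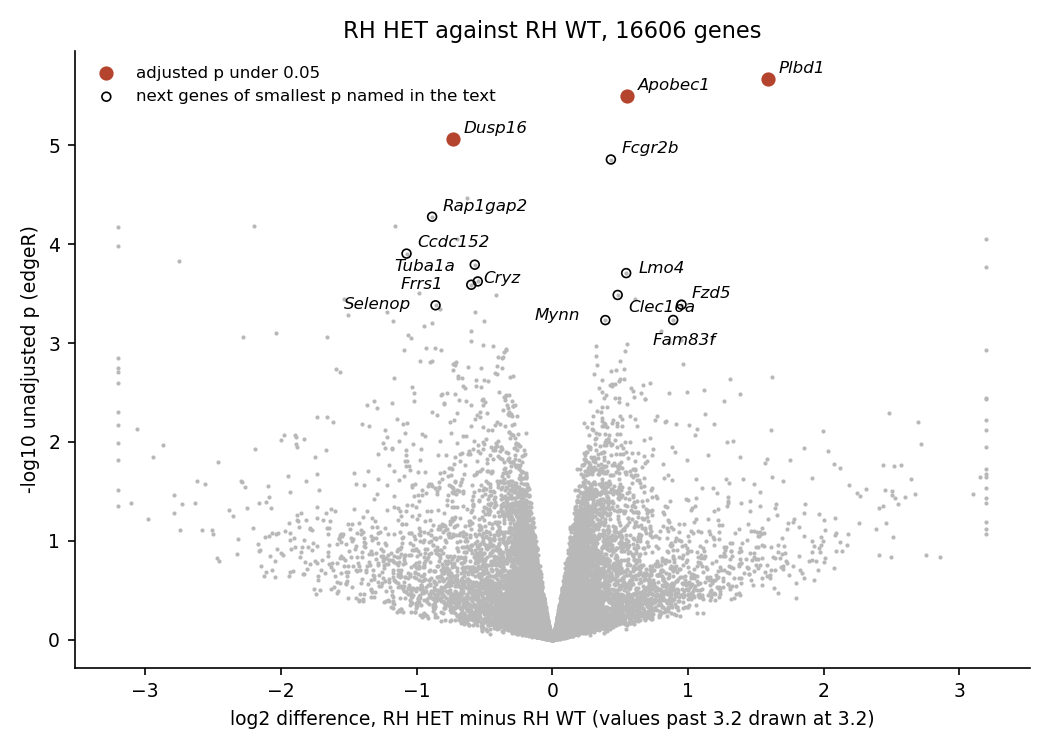
Log2 difference between RH HET and RH WT (x axis) against the unadjusted p of edgeR on a -log10 scale (y axis) for 16606 genes. The 3 called genes, in red, are Plbd1 and Apobec1 on the higher side and Dusp16 on the lower side, and Fcgr2b is next.

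All 3 called genes lie on the distal part of chromosome 6 and are read from the minus strand. Plbd1 (136612070 to 136661928, GRCm38) encodes a phospholipase B domain protein, Apobec1 (122577792 to 122602444) a cytidine deaminase that edits apolipoprotein B mRNA, and Dusp16 (134715468 to 134792625) a phosphatase that inactivates the kinases JNK and p38. Their promoters are shown because Crebbp acts through CREB, whose core motif is TGACG. The windows hold 250 bases before and 50 bases after each start in RefSeq (GRCm38.p6), at chr6:136661844-136662143 for Plbd1, chr6:122602395-122602694 for Apobec1 and chr6:134792579-134792878 for Dusp16, written on the minus strand from 5′ to 3′, with each TGACG on the strand shown in capitals.
Plbd1: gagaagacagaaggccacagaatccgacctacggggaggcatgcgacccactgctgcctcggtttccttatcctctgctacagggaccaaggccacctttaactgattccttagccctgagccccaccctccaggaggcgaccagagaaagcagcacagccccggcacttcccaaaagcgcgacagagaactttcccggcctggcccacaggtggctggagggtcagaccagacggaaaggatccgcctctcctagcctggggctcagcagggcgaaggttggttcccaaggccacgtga
Apobec1: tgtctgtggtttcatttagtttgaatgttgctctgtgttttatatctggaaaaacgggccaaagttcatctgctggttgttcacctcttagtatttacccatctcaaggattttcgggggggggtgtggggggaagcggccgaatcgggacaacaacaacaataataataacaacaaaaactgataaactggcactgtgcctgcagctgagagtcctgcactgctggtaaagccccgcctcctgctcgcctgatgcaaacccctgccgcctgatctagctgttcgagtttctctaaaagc
Dusp16: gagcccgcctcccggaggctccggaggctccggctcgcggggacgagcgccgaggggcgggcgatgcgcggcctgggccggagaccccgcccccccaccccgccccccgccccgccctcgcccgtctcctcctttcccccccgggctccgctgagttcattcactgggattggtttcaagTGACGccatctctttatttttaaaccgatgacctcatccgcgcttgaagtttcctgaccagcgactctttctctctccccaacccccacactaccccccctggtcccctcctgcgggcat
The core motif TGACG, searched on both strands, was found once in the Dusp16 window, at position 181, and in neither of the other windows. Of 32851 RefSeq windows of this length, 20.8% held TGACG, and 1.79% held the full site TGACGTCA, which contains the core motif and was in none of the 3.

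Plbd1 was counted at 15.6, 15.04, 14.3 and 14.8 CPM in libraries RH HET 1 to 4, and at 3.09, 4.37 and 7.34 CPM in RH WT 1 to 3. The heterozygous libraries lay within 1.5 CPM of each other and all above the wild type ones. Plbd1 rose by 1.59 ± 0.23 on the log2 scale (SE; 95% interval 1.11 to 2.07; adjusted p = 0.0263 by edgeR). In RH HOMO it was at 20.003, 19.8 and 22.8 CPM, a further log2 difference of 0.48 ± 0.21 over RH HET that did not pass the test (adjusted p = 0.421), and in KO it differed from KO WT by -0.15 ± 0.24.

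Apobec1 was at 251, 289, 275 and 260 CPM in libraries RH HET 1 to 4, and at 168, 181 and 200 CPM in RH WT 1 to 3. The groups did not overlap, and Apobec1 rose by 0.55 ± 0.08 (SE; interval 0.38 to 0.72; adjusted p = 0.0263 by edgeR). RH HOMO libraries, at 264, 294 and 255 CPM, spread over nearly the same range as the heterozygous ones, and the log2 difference RH HOMO minus RH HET was 0.01 ± 0.08, with an interval of -0.16 to 0.18.

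Dusp16 was at 38.9, 34.1, 37.9 and 34.4 CPM in libraries RH HET 1 to 4, and at 55.2, 57.6 and 67.9 CPM in RH WT 1 to 3. All heterozygous libraries were below all wild type ones, and Dusp16 fell by 0.73 on the log2 scale (SE 0.12; interval -0.98 to -0.48; adjusted p = 0.0481 by edgeR). RH HOMO libraries had 32.4, 24.4 and 32.9 CPM, which gave a log2 difference of -0.28 ± 0.12 from RH HET (adjusted p = 0.412).

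The 3 calls were sensitive to the libraries used. Without RH WT 1, the differences were 1.36 for Plbd1 (adjusted p = 0.0673), 0.50 for Apobec1 (adjusted p = 0.132) and -0.78 for Dusp16 (adjusted p = 0.0834), so none of the 3 was called by edgeR. The predicted genes 1700047I17Rik2 and Gm9522 were called instead, with 679 genes at an unadjusted p under 0.05. Leaving out RH WT 2 or any 1 RH HET library also left 0 genes called, with 755 to 1685 genes at an unadjusted p under 0.05, and leaving out RH WT 3 kept Plbd1 and Apobec1 called but not Dusp16. With a term for the mitochondrial share in the model, Plbd1 was at 1.30, Apobec1 at 0.54 and Dusp16 at -0.92, and 0 genes were called. Distal chromosome 6, from position 120000000 on, held 232 of the tested genes (1.40%), the 3 called genes and 6 of the 50 genes of smallest p.

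**Figure D2:**
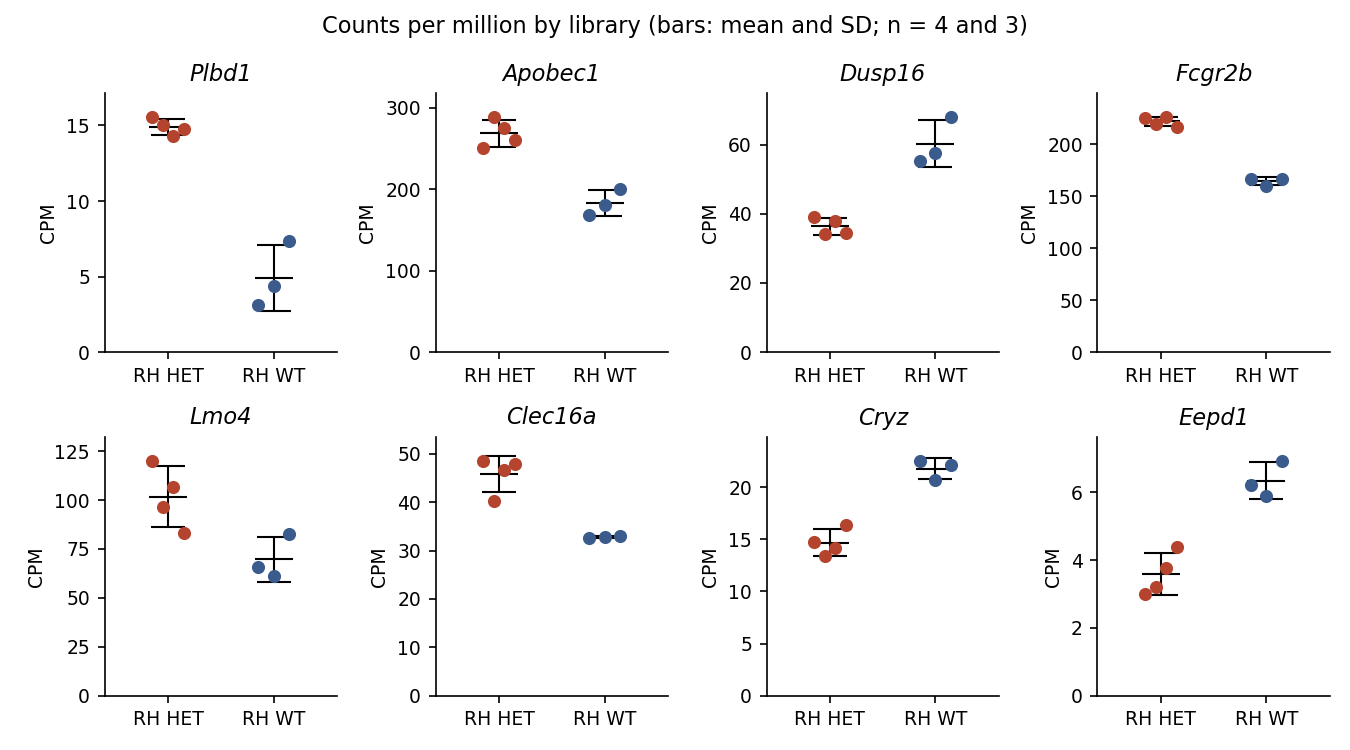
CPM of 8 genes in each RH HET (red, left) and RH WT (blue, right) library, with the mean and SD of the group (n = 4 and 3) as bars. In all 8 genes the libraries of the 2 groups do not overlap, and the gap is widest in proportion for Plbd1.

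Next in order of p came Fcgr2b, the inhibitory receptor for immunoglobulin G on B cells, which missed the threshold. It was at 225, 219, 226 and 216 CPM in libraries RH HET 1 to 4, and at 167, 160 and 166 CPM in RH WT 1 to 3. Both groups were tight and did not overlap, with a log2 difference of 0.43 ± 0.07 (SE; interval 0.28 to 0.58; adjusted p = 0.0578 by edgeR), and 0.45 without RH WT 1. In RH HOMO it was at 260, 314 and 279 CPM. The KO comparison, which uses its own wild type libraries, gave 0.35 ± 0.08.

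Among well-expressed genes (average log2 CPM 2 or more) whose groups did not overlap, Lmo4, Clec16a, Fzd5, Fam83f and Mynn followed on the higher side, and they did not pass the test. Among all genes tested, at any level, the groups did not overlap for 493 on the higher side (2.97%) and 584 on the lower (3.52%). Lmo4, a LIM-only cofactor of transcription factors, was at 120, 96.4, 107 and 83.3 CPM in the RH HET libraries, and at 65.5, 60.9 and 82.5 CPM in RH WT (0.55 ± 0.12, adjusted p = 0.191). Clec16a, a regulator of autophagy, was at 48.6, 40.3, 46.7 and 47.8 CPM in the RH HET libraries and at 32.6, 32.8 and 33.0 CPM in RH WT (0.48 ± 0.11). Lmo4 came close to overlap in RH HET 4 and RH WT 3, while the Clec16a groups were well apart. The Wnt receptor gene Fzd5 had a difference of 0.95 ± 0.22, Fam83f of 0.89 ± 0.21 and the zinc finger gene Mynn of 0.39 ± 0.09.

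On the lower side, Dusp16 was followed by the immunoglobulin lambda constant gene Iglc2 (-0.63 ± 0.11, adjusted p = 0.113), which lies outside the naming rule and was chosen after its values were seen. The first gene after it outside the antigen receptor loci was Rap1gap2, an activator of the GTPase activity of Rap1, at 11.2, 9.73, 12.1 and 12.3 CPM in the RH HET libraries and at 21.3, 18.8 and 22.7 CPM in RH WT. Every heterozygous library was below every wild type one, and the difference of -0.89 ± 0.17 did not pass the test (adjusted p = 0.123). Cryz, a quinone reductase of the crystallin family, was at 14.7, 13.4, 14.2 and 16.4 CPM in the RH HET libraries and at 22.6, 20.7 and 22.2 CPM in RH WT (-0.57 ± 0.12, adjusted p = 0.176). Ccdc152 was at -1.07 ± 0.22 and Selenop, which encodes the selenium carrier of plasma, at -0.86 ± 0.20. These genes overlap on opposite strands of chromosome 15, and since the library kit does not mark strand their shared reads cannot be told apart. Tuba1a, an alpha tubulin gene whose reads may be shared with near-identical paralogs, was at -0.55 ± 0.12, and Frrs1, a ferric reductase gene, at -0.60 ± 0.13. The lowest adjusted p among these uncalled genes on either side was that of Fcgr2b.

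No gene of antigen presentation on MHC class II, the route by which B cells show antigen to helper T cells, passed the test in RH HET. H2-Aa, the alpha chain, was at 1756, 1396, 1765 and 1600 CPM in libraries RH HET 1 to 4, and at 1501, 1456 and 1810 CPM in RH WT 1 to 3, with both groups over the same range. Its log2 difference was 0.04 ± 0.10, with an interval of -0.18 to 0.25. Of 14 genes, 8 had positive and 6 negative differences, the median was 0.03, against -0.01 over all genes tested, and 0 were called by edgeR. The protease gene Ctss was the 1 member with an unadjusted p under 0.05 (0.24 ± 0.10). All 14 intervals lay within a 2-fold change, from a lowest bound of -0.40 for H2-Eb2 to a highest of 0.46 for Ctss. The differences were 0.07 ± 0.12 for the transactivator Ciita, -0.04 ± 0.13 for the invariant chain Cd74, -0.01 ± 0.11 for H2-Ab1 and -0.00 ± 0.10 for H2-Eb1. For the loading factors H2-DMa, H2-DMb1, H2-DMb2, H2-Oa and H2-Ob they were 0.04, 0.06, -0.07, 0.10 and 0.02, and for the processing enzymes Ifi30 and Lgmn 0.13 and -0.10. The RFX, NFY and CREB genes that bind class II promoters had a median of 0.11, with 6 of 7 positive and 0 called.

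Responses to interferon gamma, a cytokine of T and NK cells, and class I presentation were uneven among the heterozygous libraries. For each list a level per library was taken as the median over its genes of log2 CPM minus the mean of the 7 libraries. The interferon gamma level was -0.08, -0.17, 0.26 and 0.33 in RH HET 1 to 4, and -0.21, -0.22 and -0.01 in RH WT 1 to 3. RH HET 3 and 4 were above every other library and RH HET 1 and 2 were within the wild type range. Of 27 genes, 23 had positive differences with a median of 0.28, 6 had an unadjusted p under 0.05 on the higher side (against 3.48% of all genes), and 0 were called. The list median was 0.08 with a term for the mitochondrial share. The transcription factor gene Irf1 was at 0.52 ± 0.20, and the GTPase gene Gbp3, at 27.8, 24.8, 29.5 and 27.1 CPM in the RH HET libraries and at 20.2, 20.3 and 23.8 CPM in RH WT, at 0.35 ± 0.10 (adjusted p = 0.401).

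The class I level was -0.07, -0.07, 0.14 and 0.13 in RH HET 1 to 4, and -0.06, -0.10 and -0.04 in RH WT 1 to 3, again with RH HET 3 and 4 highest. The heavy chain gene H2-K1 was at 616, 603, 799 and 700 CPM in the RH HET libraries and at 570, 577 and 620 CPM in RH WT, and Nlrc5, the class I transactivator, was at 65.5, 65.0, 95.1 and 96.3 CPM in the RH HET libraries and at 58.2, 67.3 and 72.6 CPM in RH WT. Both genes were highest in RH HET 3 and 4 and overlapped between groups through RH HET 1 and 2. Of 23 class I genes 21 were positive, with a median of 0.10, 2 at an unadjusted p under 0.05 (Tapbpl, 0.24 ± 0.10, and H2-T24, 0.38 ± 0.16) and 0 called. Among 27 type I interferon response genes, 14 were positive, the median was 0.04, and the receptor chain Ifnar1 was at 0.28 ± 0.08. That median was 0.18 without RH WT 1 and ran from -0.04 to 0.20 as single libraries were left out, and RH HET 1, at a level of -0.45, was below the other RH HET libraries, at 0.08 to 0.37.

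**Figure D3:**
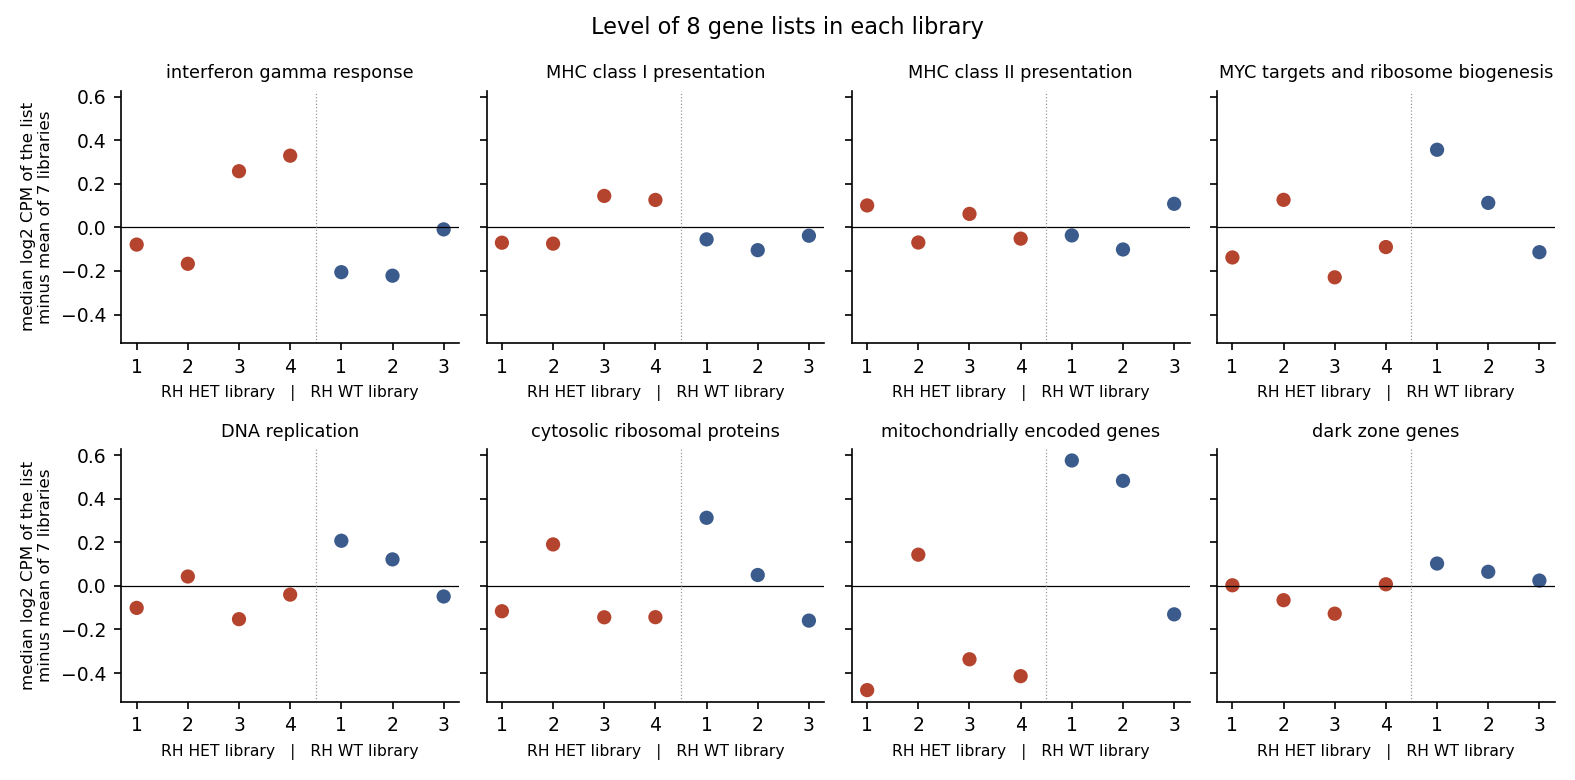
Level of 8 gene lists in RH HET 1 to 4 (red, left) and RH WT 1 to 3 (blue, right), as the median over the list of log2 CPM minus the mean of the 7 libraries (y axis). RH HET 3 and 4 are highest for the interferon gamma response, and RH WT 1 and 2 are highest for DNA replication and mitochondrially encoded genes.

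Lists of growth and division genes had mostly negative differences in RH HET, and no gene of them passed the test. All 39 DNA replication genes had negative differences, with a median of -0.15, 8 had an unadjusted p under 0.05 (against 3.7% of all genes on the lower side) and 0 were called. The polymerase subunit gene Pold1 was at 262, 275, 252 and 248 CPM in libraries RH HET 1 to 4, and at 345, 315 and 282 CPM in RH WT 1 to 3 (-0.28 ± 0.08, adjusted p = 0.427). Among 37 MYC targets and ribosome biogenesis genes 36 were negative, with a median of -0.21 and 9 at an unadjusted p under 0.05, among them Odc1, the first enzyme of polyamine synthesis (-0.27 ± 0.09, and -0.17 without RH WT 1), and Rrs1 (-0.27 ± 0.09, and -0.16 without it). Their level per library was -0.14, 0.13, -0.23 and -0.09 in RH HET and 0.36, 0.11 and -0.11 in RH WT, so the groups overlapped. Without RH WT 1 the median was -0.07 for MYC targets and -0.09 for DNA replication, and with a term for the mitochondrial share it was 0.03 and -0.01. The mitochondrial share was itself highest in RH WT 1 and 2, and its part in these differences was not tested.

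Mitosis and spindle genes had 27 of 32 negative and a median of -0.10, with Plk1, a kinase of mitotic entry, at -0.32 ± 0.10. Cytosolic ribosomal protein genes were negative in 40 of 40 cases with a median of -0.12, but that median was 0.00 without RH WT 1 and 0.15 with the term for the mitochondrial share, and Rpl8 was at -0.21 ± 0.19, or -0.06 without RH WT 1. Of 36 nuclear-encoded respiratory chain genes 32 were negative (median -0.11, -0.0048 without RH WT 1 and 0.11 with that term), led by Cox8a at -0.22 ± 0.10. The 13 mitochondrially encoded genes had a median of -0.56, -0.40 without RH WT 1 and -0.02 with that term. Their extreme, mt-Nd4l, was at 0.860, 1.45, 0.869 and 0.918 CPM in the RH HET libraries and at 112, 2.13 and 1.94 CPM in RH WT, with RH WT 1 far above the rest (difference -5.21 ± 0.999, adjusted p = 0.123, and -0.98 without RH WT 1).

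Metabolic lists leaned the same way. ATF4 targets and amino acid synthesis genes had 15 of 17 negative, a median of -0.21 and 7 at an unadjusted p under 0.05, and their level did not overlap between groups, at -0.18 to -0.05 in RH HET and -0.01 to 0.23 in RH WT. Asns, which makes asparagine, was at 19.1, 22.1, 15.5 and 21.4 CPM in the RH HET libraries and at 38.6, 23.9 and 27.5 CPM in RH WT (-0.62 ± 0.17, adjusted p = 0.371), and the amino acid transporter gene Slc7a5 was at -0.37 ± 0.10. The Asns groups did not overlap, but RH WT 1 was far above the other wild type libraries. The ATF4 median was -0.11 without RH WT 1. Cholesterol and fatty acid synthesis had 23 of 26 negative (median -0.18, and -0.24 without RH WT 1), with the squalene synthase gene Fdft1 at -0.33 ± 0.12. Glycolysis had 15 of 21 negative (median -0.14, -0.03 without RH WT 1 and -0.01 with the term for the mitochondrial share), with the lactate transporter gene Slc16a1 at -0.30 ± 0.09. In these 3 lists 0 genes were called, with 12 at an unadjusted p under 0.05, all lower (against 3.7% of all genes).

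**Figure D4:**
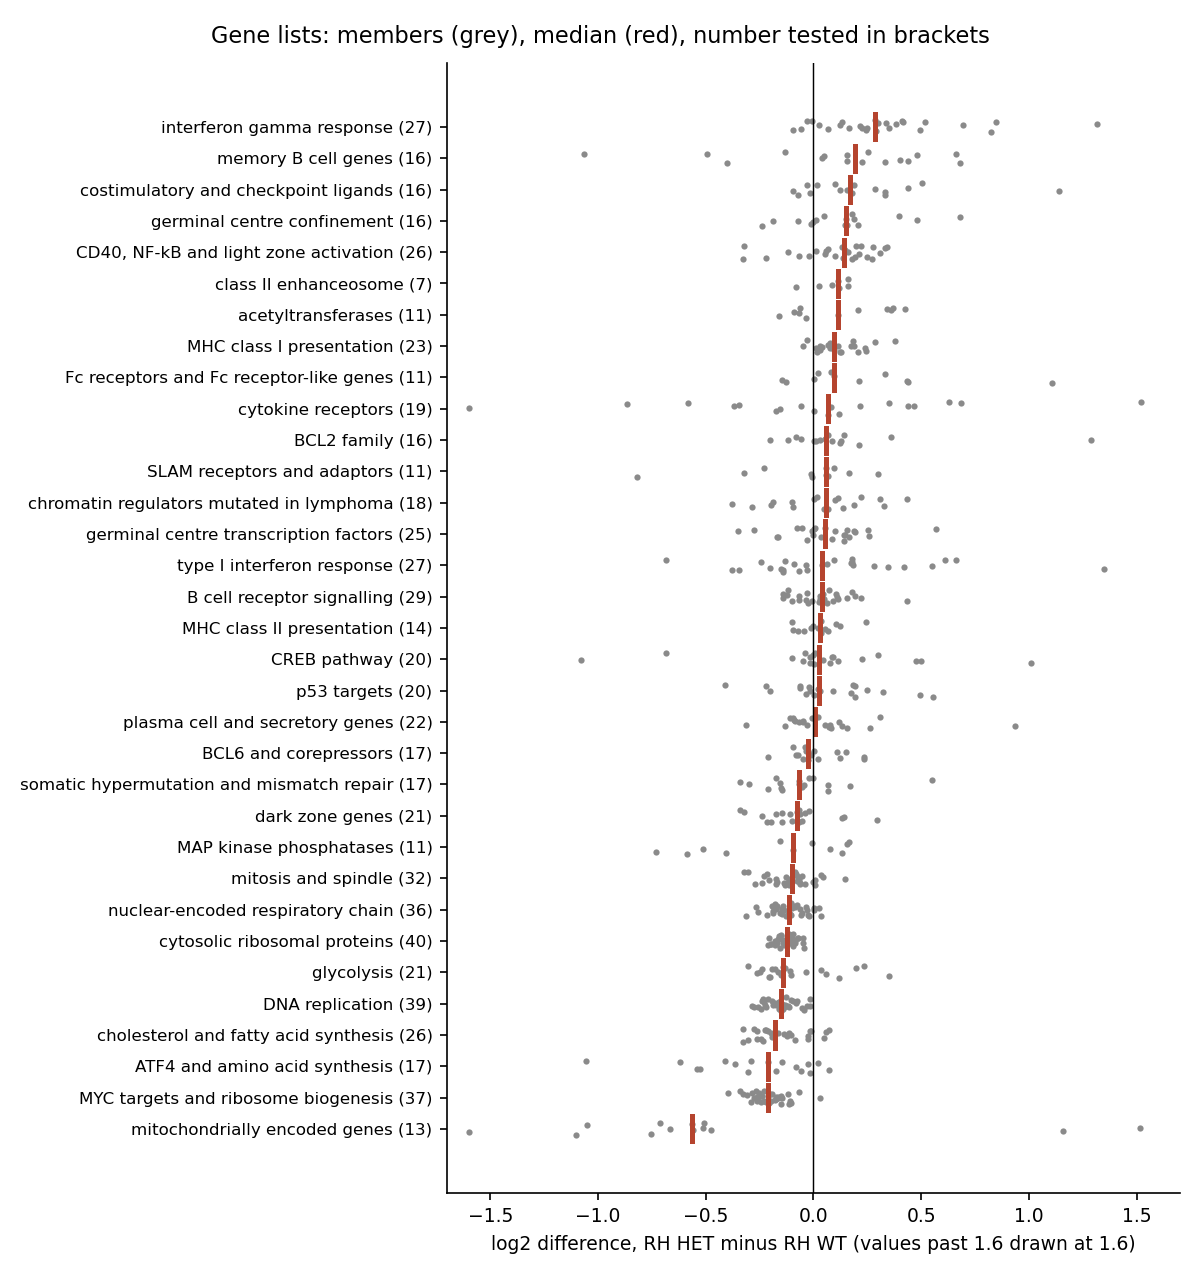
Log2 difference between RH HET and RH WT (x axis) for the members of 33 gene lists (grey points, jittered in height) with the median of each list in red. List medians lie between -0.21 and 0.28 apart from the mitochondrially encoded genes at -0.56.

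Lists of light zone and T cell contact genes had mostly positive differences. CD40, NF-kB and light zone activation genes had 20 of 26 positive with a median of 0.14, 3 higher and 2 lower at an unadjusted p under 0.05 (against 3.48% and 3.7% of all genes), and 0 called. The median was 0.05 to 0.23 as single libraries were left out, and 0.22 without RH WT 1. The list level was -0.31 in RH WT 2, while RH WT 1 (0.08) and RH WT 3 (0.01) lay within the RH HET range of -0.01 to 0.11. Cd86, a costimulatory ligand of T cell CD28, was at 158, 158, 176 and 174 CPM in the RH HET libraries, and at 126, 121 and 150 CPM in RH WT. The groups did not overlap, and the difference of 0.33 ± 0.09 did not pass the test (adjusted p = 0.37). Of 16 costimulatory and checkpoint ligand genes 12 were positive (median 0.17), with Icosl, the ligand of ICOS, at 0.44 ± 0.14. Dark zone genes had 18 of 21 negative with a median of -0.08, and their level was lower in every RH HET library, at -0.13 to 0.01, than in RH WT, at 0.02 to 0.10. The highest heterozygous and the lowest wild type library were close to each other.

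Lists tied to germinal centre identity held few candidates. Germinal centre transcription factors had a median of 0.05, with Mef2b at 295, 314, 272 and 247 CPM in the RH HET libraries and at 400, 348 and 330 CPM in RH WT (-0.35 ± 0.10, adjusted p = 0.416; -0.26 without RH WT 1). BCL6 and its corepressors had a median of -0.03, and 0.02 without RH WT 1, with 0 of 17 at an unadjusted p under 0.05, and the corepressor gene Rcor1 was first at 0.23 ± 0.13. Chromatin regulators mutated in lymphoma had a median of 0.06, and 0.09 without RH WT 1, and the remodelling ATPase gene Smarca4 was at -0.29 ± 0.10. CREB pathway genes had a median of 0.03, with the cyclic nucleotide phosphodiesterase Pde2a at -0.69 ± 0.20. Germinal centre confinement genes had a median of 0.15, and 0.05 without RH WT 1, with Klf2, a factor of resting B cells, at 0.68 ± 0.27. In these 5 lists 0 of 96 genes were called.

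Receptor and signalling lists were also without calls. B cell receptor signalling had a median of 0.04 (0.01 without RH WT 1) and Fc receptors and Fc receptor-like genes 0.09, both with Fcgr2b as the gene of smallest p. Cytokine receptors had a median of 0.07, with the interleukin 2 receptor beta chain Il2rb at -0.86 ± 0.22 and the interleukin 4 receptor alpha chain Il4ra at 0.44 ± 0.13. SLAM receptors and adaptors had a median of 0.06, and 0.01 without RH WT 1, with the adaptor gene Sh2d1b1 at 3.91, 3.74, 2.68 and 3.31 CPM in the RH HET libraries and at 7.23, 4.48 and 6.39 CPM in RH WT (-0.82 ± 0.24, adjusted p = 0.414). Memory B cell genes had a median of 0.19, and 0.02 without RH WT 1, with the repressor gene Zbtb32 at -1.06 ± 0.26, or -0.56 without RH WT 2, its highest library. BCL2 family genes (median 0.06, and 0.03 without RH WT 1, Bik at 1.29 ± 0.44 from under 1 CPM), p53 targets (0.03, and 0.01 without it, Btg2 at 0.49 ± 0.15) and plasma cell and secretory genes (0.01, and 0.12 without it, Dnajb9 at 0.31 ± 0.13) completed the set.

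A called gene was a member of 2 lists. Somatic hypermutation and mismatch repair had 13 of 17 negative with a median of -0.07, and Apobec1 was its only call, on the higher side. MAP kinase phosphatases had 7 of 11 negative with a median of -0.10, and Dusp16 was its only call. Dusp14 (-0.51 ± 0.16), Dusp5 (-0.40 ± 0.16) and Dusp3 (-0.59 ± 0.24) had unadjusted p under 0.05 and did not pass.

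Markers of other cells that a sort could admit were low in both groups. Macrophage and monocyte markers summed to 23.7 to 36.9 CPM in RH HET and 25.4 to 30.7 CPM in RH WT over 20 genes, of which 12 of 16 tested were positive with a median of 0.71. Of the 20, 15 averaged under 1 CPM, and 2 of the 16 intervals lay within a 2-fold change. The groups overlapped in list level, at -0.64 (RH HET 3) to 0.95 (RH HET 1) in RH HET and -0.25 to -0.11 in RH WT. Adgre1, the F4/80 antigen, was at 2.78, 2.78, 3.75 and 1.98 CPM in the RH HET libraries and at 0.734, 1.42 and 1.56 CPM in RH WT (1.18 ± 0.29, adjusted p = 0.335). The part of such cells in the small differences above was not tested. T cell markers summed to 127 to 176 CPM in RH HET and 121 to 163 CPM in RH WT, nearly all from Lck, and Cd3e, Trbc1, Cd8b1 and Il21 were at 0 in all 7 libraries. Of 9 tested T cell markers, 3 were positive and 6 negative, with a median of -0.27 (-0.17 without RH WT 1). Thy1, the one of smallest p, stood at 0.88 ± 0.46. Dendritic cell markers summed to 56.1 to 59.8 CPM in RH HET and 53.9 to 59.8 CPM in RH WT, mainly from Flt3. Siglech was at 0 and Itgax at 0.89 ± 0.47. Of 6 tested dendritic cell markers, 4 were positive and 2 negative, with a median of 0.16 (-0.02 without RH WT 1). Neutrophil markers stayed under 0.5 CPM in each library, with S100a8, Ly6g, Retnlg and Elane at 0 and Csf3r at -0.40 ± 0.92. NK cell markers summed to 0.908 to 1.30 CPM in RH HET and 0.262 to 1.602 CPM in RH WT, with Nkg7, Gzma, Gzmb and Klre1 at 0. Of the 2 NK markers tested, Klrb1c was at 2.48 ± 0.77 and the other at -0.56, with a median of 0.96 (0.62 without RH WT 1). Erythroid markers (111 to 124 CPM in RH HET and 118 to 148 CPM in RH WT) came mainly from Tfrc, which dividing cells also express, with Car1 at 0 and Car2 at 0.45 ± 0.21. Of 6 tested erythroid markers, 2 were positive and 4 negative, with a median of -0.10 (-0.02 without RH WT 1). Megakaryocyte markers (77.1 to 105 CPM in RH HET and 76.2 to 105 CPM in RH WT) came mainly from Itgb3 (-0.07 ± 0.13). Of 3 tested, 1 was positive and 2 negative, with a median of -0.07 (0.05 without RH WT 1). Stromal and endothelial markers (53.5 to 73.2 CPM in RH HET and 57.3 to 77.6 CPM in RH WT) came mainly from Pecam1. Col3a1, Kdr, Pdpn, Ccl19 and Ccl21a were at 0 and Cdh5 at -0.47 ± 0.26. Of 4 tested, 2 were positive and 2 negative, with a median of -0.01 (-0.16 without RH WT 1).

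Other B cells are harder to separate from germinal centre cells by RNA. Follicular naive B cell markers summed to 1956 to 2431 CPM in RH HET and 1829 to 2430 CPM in RH WT, with 13 of 17 tested positive and a median of 0.16, which was 0.01 without RH WT 1. Marginal zone markers summed to 794 to 859 CPM in RH HET and 783 to 920 CPM in RH WT, with a median of -0.06, or -0.03 without RH WT 1, and Myof at -0.35 ± 0.20. In bulk samples fewer cells of a type and less RNA per cell cannot be told apart.

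Whether the genes changed by loss of Crebbp differed in the heterozygous cells was asked through the KO comparison, which shares no library with RH HET and RH WT, although 1 fit estimated the spread of each gene for both. Loss of Crebbp changed 95 genes upward (0.572% of genes) and 121 downward (0.729%). Of the 95, 59 had positive differences in RH HET (62.1%, against 48.8% of all genes), with a median of 0.10 in RH HET and 0.98 in KO. At an unadjusted p under 0.05, 24 of them were higher in RH HET (25.3%, against 3.48% of all genes). In the opposite direction, 8 of the 95 were lower (against 3.7% of all genes). Of the 121, 87 had negative differences in RH HET (71.9%, against 8510 of all 16606 genes), with a median of -0.09 in RH HET and -0.80 in KO. At an unadjusted p under 0.05, 28 of them were lower in RH HET (23.1%, against 3.7% of all genes). In the opposite direction, 3 of the 121 were higher (against 3.48% of all genes). By edgeR 0 of the 216 genes passed in RH HET. Without any 1 library of the comparison, 54 to 68 of the 95 and 76 to 92 of the 121 had the same sign. At an unadjusted p under 0.05 the same-sign counts were then 17 to 26 and 17 to 24. The opposite-sign counts were 5 to 11 and 1 to 6. With a term for the mitochondrial share, 12 and 23 genes had the same sign at that threshold, and 2 and 1 the opposite sign. These counts describe the genes and were not tested.

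**Figure D5:**
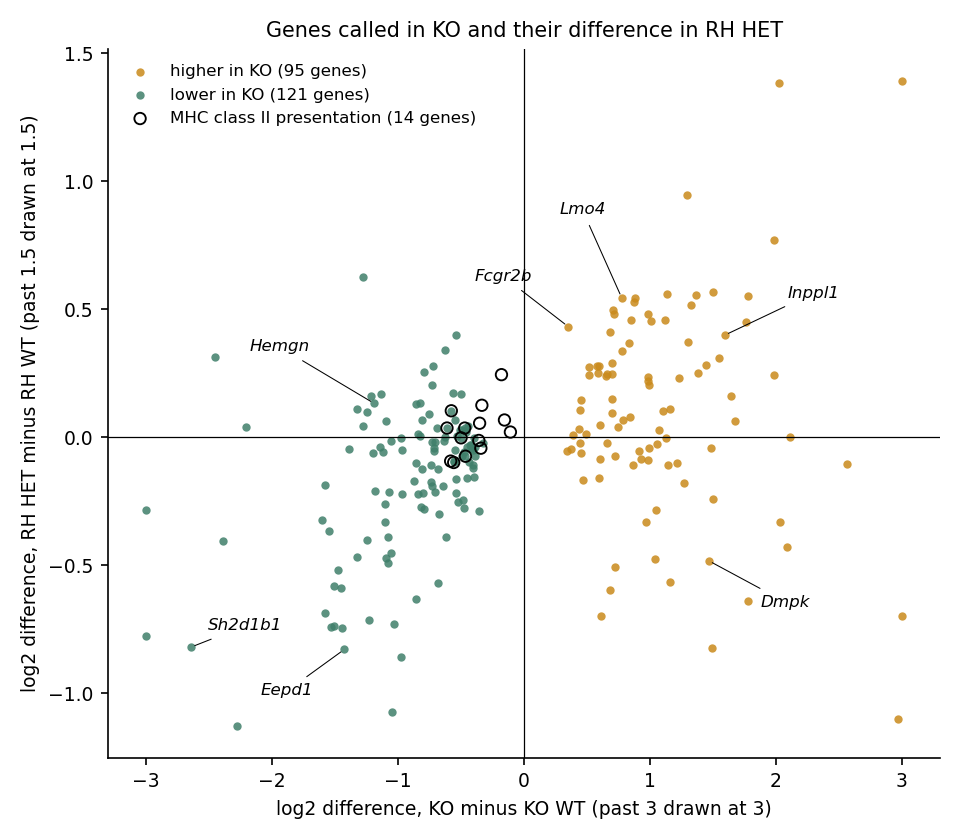
Log2 difference in RH HET against RH WT (y axis) and in KO against KO WT (x axis) for the 95 genes higher and the 121 genes lower in KO, with the 14 genes of MHC class II presentation circled. The KO medians are 0.98 and -0.80, against 0.10 and -0.09 in RH HET, and the class II genes lie between -0.10 and 0.24 on the RH HET axis.

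Genes with same-signed differences included Lmo4 (0.55 in RH HET and 0.78 in KO), Clec16a (0.48 and 0.71), Inppl1, an inositol phosphatase gene (0.40 and 1.59), Cryz (-0.57 and -0.68) and Eepd1, an endonuclease family gene (-0.83 and -1.43). Eepd1 was at 2.99, 3.195, 3.75 and 4.37 CPM in the RH HET libraries, and at 6.21, 5.88 and 6.93 CPM in RH WT, with no overlap (adjusted p = 0.275). The 14 class II genes had a median of 0.03 in RH HET and -0.41 in KO. The RH HET effect minus the KO effect was positive for 14 of 14 of them, but 0 passed the test of that difference, with H2-Aa at 0.65 ± 0.15 (adjusted p = 0.148).

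The test of the difference between the effects called 20 genes (0.12%), 8 with a more positive effect in RH HET (0.0482%) and 12 with a more negative one (0.0723%), and 1428 genes (8.6%) had an unadjusted p under 0.05. Of the 20, 17 were called in KO, 2 in RH HET and 18 had effects of opposite sign. The signs are not a separate result, since the genes were picked for a large difference of effects. Some of the effects were small beside their SE, such as Hemgn in RH HET (0.13 ± 0.12) and Apobec1 (-0.09 ± 0.09) and Plbd1 (-0.15 ± 0.24) in KO. On the more negative side, Dmwd was at 30.7, 33.3, 33.1 and 35.1 CPM in the RH HET libraries and at 39.9, 43.9 and 36.9 CPM in RH WT, while it was at 54.4, 56.1 and 52.5 CPM in KO and at 25.6, 27.2 and 25.9 CPM in KO WT. The difference of effects was -1.33 ± 0.13 (adjusted p = 0.000271 by edgeR), and the KO libraries were the high group. The 2 wild type groups also differed, with every RH WT library above every KO WT library. Dmpk, the kinase gene that neighbours Dmwd on chromosome 7, had -1.95 ± 0.27 and Dab2ip, a Ras GTPase-activating protein gene, -1.72 ± 0.24 (adjusted p = 0.0058 for both). On the more positive side were Hemgn (1.32 ± 0.18), Fam167a (1.37 ± 0.21) and Crybg1 (0.94 ± 0.17). Hemgn was at 16.1, 17.1, 17.5 and 15.2 CPM in the RH HET libraries and at 15.8, 16.2 and 13.1 CPM in RH WT, against 10.6, 8.46 and 9.43 CPM in KO and 23.5, 22.02 and 19.5 CPM in KO WT. Hemgn levels overlapped between RH HET and RH WT and were lower in KO, and every KO WT library was above every RH WT library. Because the KO effect is part of the difference, the KO calls among these genes are not a separate result. Plbd1 (1.74 ± 0.33, adjusted p = 0.0488) and Apobec1 (0.64 ± 0.12, adjusted p = 0.0463) were the 2 calls shared with RH HET, and without RH WT 1 neither was called (adjusted p = 0.0848 for Plbd1 and 0.115 for Apobec1). Leaving out 1 library moved these counts to between 2 and 24 and between 6 and 20, with 24 and 20 without RH WT 3 and 2 and 6 without KO WT 1.

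Homozygous and heterozygous cells were last compared directly. By edgeR 0 genes passed (0%). The smallest adjusted p was 0.105, and 1889 genes (11.4%) had an unadjusted p under 0.05. DESeq2 gave 36 higher and 96 lower genes in RH HOMO, and limma-voom gave 44 and 45. The library RH HOMO 2 stood apart, with 8.23% of counts on ribosomal protein genes, against 5.09% to 6.32% in RH HET. Eepd1 was at 1.73, 1.17 and 1.54 CPM in RH HOMO and at 2.99, 3.195, 3.75 and 4.37 CPM in RH HET, a difference of -1.27 ± 0.21 (adjusted p = 0.105). The other named genes were those of smallest p among well-expressed genes whose RH HOMO and RH HET libraries did not overlap. On the higher side they were Ide, an insulin-degrading protease gene (0.74 ± 0.14), Tspan31 (0.61 ± 0.12) and Fcgr2b (0.36 ± 0.07). On the lower side they were Usp2, a deubiquitinase gene (-0.77 ± 0.14), and Sh2d2a (-0.98 ± 0.18). For Ide the heterozygous libraries, at 25.1, 23.9, 24.1 and 26.2 CPM, were below both RH HOMO, at 49.4, 36.2 and 38.8 CPM, and RH WT, at 32.7, 33.6 and 27.6 CPM. Cryz was at -0.60 ± 0.12 between RH HOMO and RH HET. Fcgr2b, Eepd1, Cryz, Usp2, Plbd1, Dusp16 and Rap1gap2 had RH HET libraries between the RH HOMO and RH WT libraries, without overlap on either side. This order is partly set by selection. The genes of smallest p named for either comparison were picked among those whose groups did not overlap. How many of all genes have this order was not counted.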

How the data were processed

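RNA was measured by bulk sequencing of sorted spleen germinal centre B cells. The deposited table holds counts per gene, which are whole numbers with totals that differ between libraries, and per the submitters' processing notes the reads were processed with CASAVA 1.8, HISAT2 and featureCounts on mm10. The sources used here give neither versions of the last 2 tools nor the strand setting, and the library kit does not mark strand. Most low counts are even numbers, so counts halved and rounded up were tried as an alternative after seeing the data. Of 48593 gene symbols, 48069 were matched to GENCODE M21 (GRCm38) for positions. Groups were taken from the titles, since the genotype field holds another entry.

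All 16 libraries entered 1 fit with 5 group means (11 residual degrees of freedom) in edgeR 4.0.16 (R 4.3.3), with TMM scaling, the filterByExpr filter (16606 genes kept), the quasi-likelihood test and Benjamini-Hochberg adjustment, called at 0.05. SE is the log2 difference over the root of F, and intervals are 95%. CPM use TMM-scaled totals. Alternatives were DESeq2 1.42.0, other filters and scalings, terms for sex and mitochondrial share, and leaving out each library. A further alternative, called limma-voom here, was limma 3.58.1 with voom and quality weights for the libraries. The procedure was tested on simulated data that held no batch difference and no mitochondrial share difference, so the test does not cover either.

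Named genes were every called gene, the 8 higher and 8 lower genes of smallest p that averaged 2 or more on the log2 CPM scale and did not overlap between groups (no receptor segments, predicted genes or pseudogenes), every MHC class II gene, Crebbp and Ep300, the first 2 members by p of 3 lists and the first of each other list, and the 3 genes of smallest p per direction in the other comparisons. For RH HOMO minus RH HET, those genes also had to be without overlap between RH HOMO and RH HET libraries. Other genes given, such as further members of the interferon, class I, kinase phosphatase and KO-called sets, were chosen after their values were seen. The comparison and the lists were chosen with earlier results of these data known. Of the named and marker genes, 2 are not reported here.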

Additional observations from a re-analysis of the deposited data

Results flagged for a closer look

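For 125 groups of values the gap between the most extreme RH HET library and its nearest neighbour was set against the range of the 4 libraries, and 11 exceeded the 95% critical value, which chance alone exceeds in about 1 of 20 groups. Library RH HET 2 was the extreme one in 7 of them. The gap took 0.903 of the range for mt-Nd4l (RH HET 2 at 1.45 CPM), 0.882 for Tuba1a (RH HET 2 at 155 CPM), 0.867 for Ctss (RH HET 2 at 182 CPM, the others at 231 to 239) and 0.860 for H2-Eb2 (RH HET 2 at 94.7 CPM, the others at 135 to 142). For the list levels it took 0.922 for the CREB pathway (RH HET 2 at -0.12), 0.917 for cytosolic ribosomal proteins (RH HET 2 at 0.19) and 0.833 for the nuclear-encoded respiratory chain (RH HET 2 at 0.12). Other libraries were extreme for Usp2 (0.849, RH HET 4 at 15.5 CPM), Lgmn (0.843, RH HET 1 at 257 CPM), mitosis and spindle genes (0.840, RH HET 3 at -0.21) and dendritic cell markers (0.858, RH HET 3 at 0.23).

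The effect of RH heterozygosity and the effect of Crebbp loss, each against its own wild type, differed by the test of the difference itself in 9 named genes. The RH HET effect was the more positive one for Plbd1 (1.74), Fam167a (1.37), Hemgn (1.32), Crybg1 (0.94) and Apobec1 (0.64). It was the more negative one for Dmpk (-1.95), Dab2ip (-1.72), Dmwd (-1.33) and Frrs1 (-1.28). Dmpk, Dab2ip, Dmwd, Fam167a, Hemgn and Crybg1 were named for their small p in this test, so their passing it is not a separate result. For Dmwd, Dmpk, Hemgn and Crybg1 the RH WT and KO WT libraries did not overlap in level, while for the others they did. The part of such differences between the wild type groups in the difference of effects was not tested. Without RH WT 1, Plbd1 (adjusted p = 0.0848 by edgeR), Apobec1 (0.115) and Crybg1 (0.115) were no longer called. These 3 were called in 10, 10 and 12 of 26 alternatives, and each of the other 6 in 24 or 25.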

How the results depend on the processing

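Counts of called genes are given as higher and lower, for RH HET minus RH WT (2 and 1 by edgeR as described), RH HOMO minus RH HET (0 and 0) and the RH HET effect minus the KO effect (8 and 12). DESeq2 gave 17 and 34, 36 and 96, and 70 and 68, limma-voom gave 127 and 117, 44 and 45, and 342 and 258, and no count filter gave 4 and 15, 11 and 52, and 29 and 32. Fitting only the libraries compared gave 0 and 0 (with 1054 genes at an unadjusted p under 0.05), 1 and 1, and 15 and 19. A term for the mitochondrial share gave 0 and 0 (with 644 genes at an unadjusted p under 0.05), 2 and 2, and 1 and 3. A term for sex gave 2 lower genes in RH HET and 2 and 5 in RH HOMO. Moving RH WT 1 to the KO cohort gave 0 higher genes in RH HET, and 1 and 3 for the difference of effects. With all 6 wild type libraries as 1 group, 6 and 5 genes were called in RH HET. DESeq2 size factors, leaving out immunoglobulin and T cell receptor genes and a table free of mitochondrial and rRNA-like genes each gave 0 lower genes in RH HET. Leaving out the receptor genes gave 3 higher genes for the difference of effects, and an adjusted p under 0.1 gave 14. Leaving out 1 library at a time gave 0 to 4 and 0 to 1 genes in RH HET, 0 to 1 lower genes in RH HOMO, and 2 to 24 and 6 to 20 for the difference of effects. The causes were not tested.

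Plbd1, Apobec1 and Dusp16 kept their direction in all 21 alternatives and were called in 12, 12 and 8 of them. With the term for the mitochondrial share, list medians changed sign for germinal centre transcription factors (-0.18), cytosolic ribosomal proteins (0.15), the respiratory chain (0.11), germinal centre confinement (-0.10), memory B cell genes (-0.09), B cell receptor signalling (-0.09), SLAM receptors (-0.09), MHC class II (-0.06), the CREB pathway (-0.05), BCL2 family (-0.04), MYC targets (0.03), cytokine receptors (-0.02), MAP kinase phosphatases (0.01), chromatin regulators (-0.0037), the class II enhanceosome (-0.00094) and the markers of follicular (-0.09), erythroid (0.06) and megakaryocyte cells (0.34). No paired analysis was possible because library numbers follow accession order only, which pairs nothing.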
